A study of Mus musculus with 132 samples.

Results

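The VEGF ligands, receptors and neuropilins are the 9 genes Kdr, Flt1, Flt4, Nrp1, Nrp2, Vegfa, Vegfb, Vegfc and Pgf, taken by symbol from a table of read counts for 25146 genes in 23 poly(A)-minus RNA-seq libraries. All 9 were found, and none was chosen by its measured level, although earlier results of these data were known when the genes were chosen. The libraries came from the male 129/Ola mouse ESC line E14-TG2a and clones of it. Undifferentiated cells were grown with serum and leukemia inhibitory factor, and the later stages were differentiated in serum-free medium towards blood. Poly(A)-minus RNA is the fraction left after removal of polyadenylated transcripts, and reads were counted over exons and introns, so a count here reflects unspliced and nascent RNA as well as processed RNA.

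Undifferentiated wild-type (WT) mESCs at day 0 gave 2 libraries, which are technical replicates of 1 culture. Mesoderm at day 4, sorted for Flk1, gave 3 libraries from WT cells and 3 from each knockout, P1-CTCF-KO and P2-CTCF-KO. Hematopoietic progenitor cells (HPCs) at day 7, sorted for CD41, gave 4 WT, 3 P1-CTCF-KO and 5 P2-CTCF-KO libraries. The knockouts are single-cell clones in which CRISPR/Cas9 removed the CTCF site beside the distal (P1) or the proximal (P2) promoter of Runx1, and gene counts cannot check those deletions. The clones were B9.3, C6.1 and C8.1 for WT, E7.1, E7.2 and E9.1 for P1-CTCF-KO, and D10.1, D2.1 and another clone named E9.1 for P2-CTCF-KO. A second HPC library was made from each of B9.3, D10.1 and D2.1. BMP-4, bFGF and Activin A were supplied before the day 4 sort, and every HPC library came from cells that had then been cultured with added VEGF and SCF. Depletion of ribosomal RNA is named only for the undifferentiated cells, so every comparison with them is also one between library preparations. Culture media differ in these comparisons as well.

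VEGF ligands are secreted dimers that bind receptor tyrosine kinases on endothelial cells and their precursors. Kdr (VEGFR2, Flk1) is the main signalling receptor for Vegfa, Flt1 (VEGFR1) binds Vegfa, Vegfb and Pgf tightly with weak kinase activity and is often described as a decoy, and Flt4 (VEGFR3) binds Vegfc. The neuropilins Nrp1 and Nrp2 are co-receptors for VEGFs and for class 3 semaphorins. Flk1 marks the mesoderm from which blood and endothelium arise, and blood progenitors are known to emerge from endothelium. Because the Flk1 protein was the sorting marker of mesoderm, the level of Kdr against the stages before and after it is described here and not tested.

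Most of each library lay in ribosomal RNA, entries annotated at several loci and entries spanning over 2.5 Mb (68.1% to 91.0% together). This left 4858660 to 7748567 counts for other genes in mESCs, 1897917 to 2288976 in mesoderm and 878966 to 1584401 in HPCs. Levels are given as CPM, counts scaled to a common library size by TMM over all 23 libraries. Marker genes followed the labels: the sum of 8 pluripotency markers was 59.1 to 59.5 CPM in mESCs and at most 4.48 CPM in mesoderm, and the sum of 8 HPC markers was 80.6 to 258 CPM in HPCs and at most 22.8 CPM in mesoderm. Sums of 11 endothelial markers (Cdh5, Pecam1, Tek and others) ranged from 4.13 to 102 CPM in WT mesoderm and from 8.03 to 64.6 CPM in P1-CTCF-KO mesoderm, but from 1.86 to 2.52 CPM in P2-CTCF-KO mesoderm, where Emcn and Cd34 had no counts. Sums of 8 primitive streak and early mesoderm markers ran the other way, with 48.2 to 83.7 CPM in P2-CTCF-KO against 7.44 to 22.1 CPM in WT mesoderm. Among HPCs, the P2-CTCF-KO library D2.1 had the highest endothelial sum, 79.5 CPM against 12.2 to 29.8 CPM in the other 11. The WT mesoderm library B9.3, the P1-CTCF-KO mesoderm library E9.1 and the HPC libraries B9.3 (WT) and D2.1 (P2-CTCF-KO) stood apart from their groups in endothelial markers or in neuropilins, so values without them are given where a result rests on them. In bulk RNA, fewer cells of a type and less RNA per cell cannot be told apart.

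**Figure D1:**
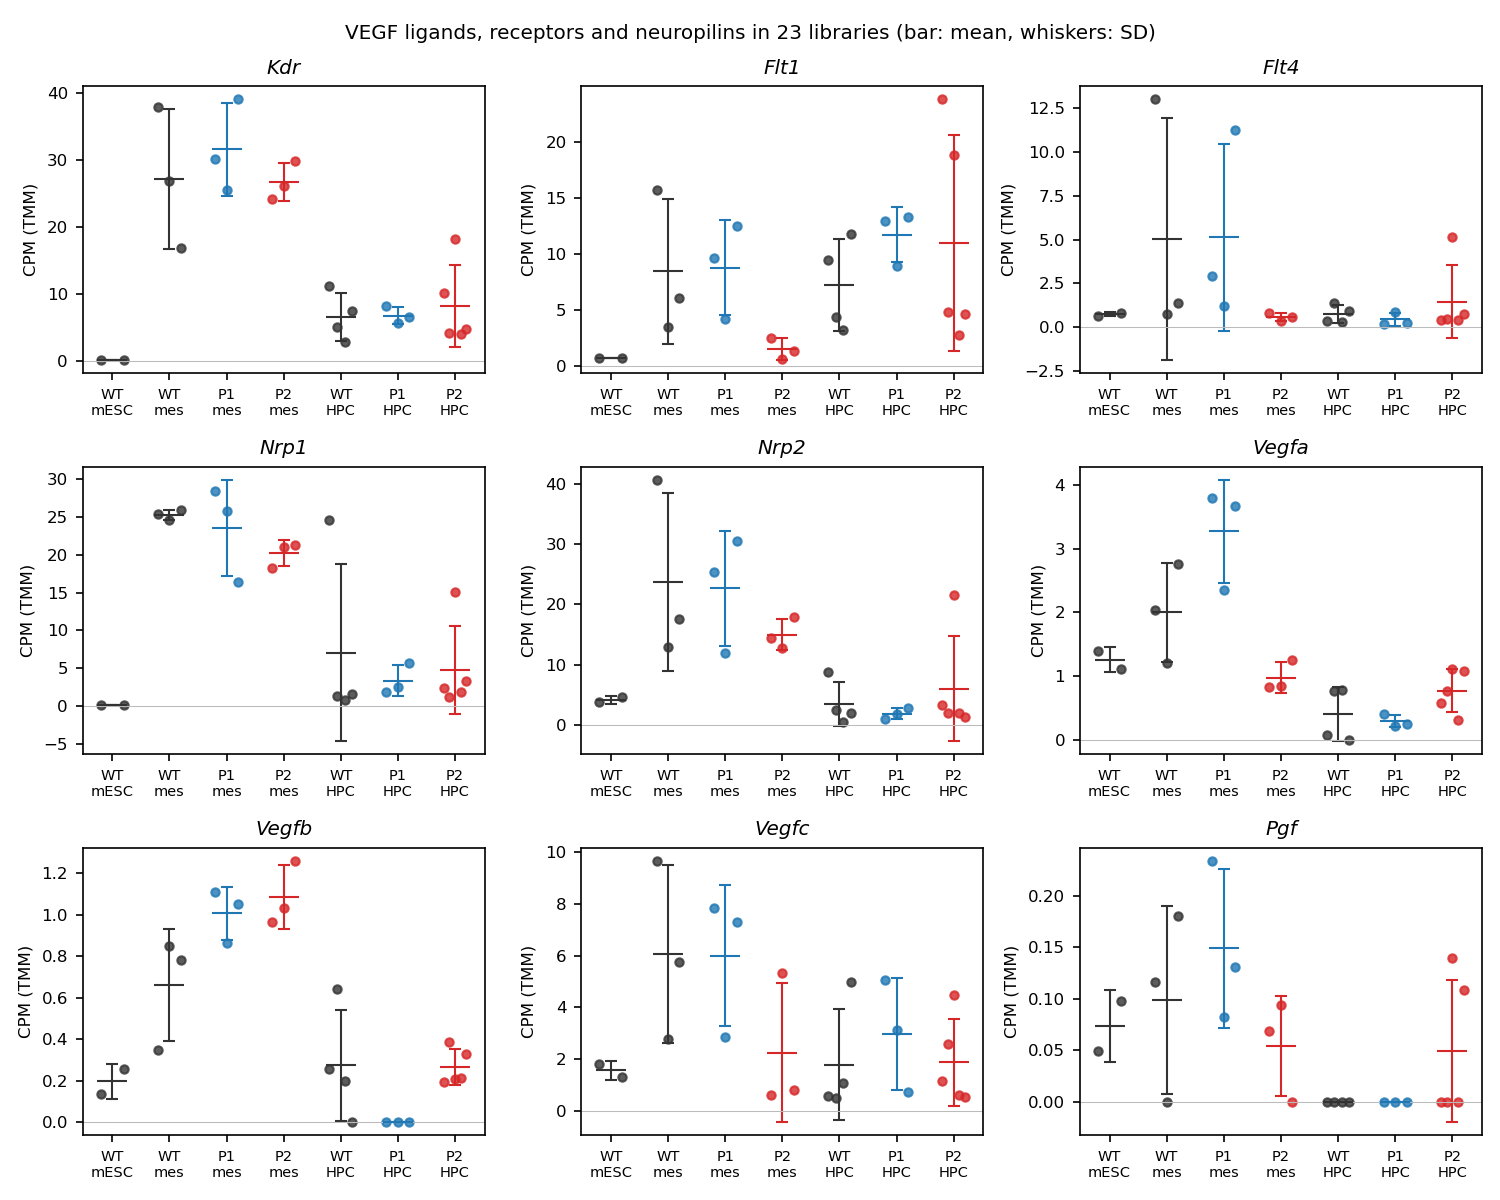
Level of each gene in CPM (TMM, linear axis) in the 23 libraries, by genotype and stage (mes, mesoderm), with points for libraries, bars for the group mean and whiskers for the SD. Kdr and Nrp1 were below 0.2 CPM in mESCs and above 16 CPM in every mesoderm library, whereas Flt1 and Flt4 spread widely within WT and P1-CTCF-KO mesoderm.

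Calls required both an absolute log2 fold change over 1 and an adjusted p under 0.05 in edgeR's quasi-likelihood test. From mESCs to WT mesoderm, 4 of the 7 members tested rose (Flt1, Flt4, Nrp1 and Nrp2) and none fell, where 24.4% of all genes tested were called (27.2% on the adjusted p alone). The mESC libraries are technical replicates, so the spread between them is technical. Summed to 1 mESC sample, which is assumed to vary like the other groups (an alternative chosen after seeing the data), they left 2 of these members called, Flt1 and Nrp1, and 8.67% of all genes. The split of all calls at this step was 1389 higher and 1757 lower, and with DESeq2 1453 and 1216. From WT mesoderm to WT HPCs, 3 of 7 fell (Flt4, Nrp2 and Vegfa) and none rose, against 23.3% of all genes called (27.1% on the adjusted p alone). In P1-CTCF-KO cells 5 of 7 fell at this step (Flt4, Nrp1, Nrp2, Vegfa and Vegfb), against 32.7% of genes called (39.4% on the adjusted p alone). In P2-CTCF-KO cells Vegfb fell and Flt1 rose, against 28.2% of genes called (37.3% on the adjusted p alone). Pgf had too few counts for any test, and Kdr is not counted in these steps. Between genotypes no member was called at either stage. There, 0% of genes were called for P1-CTCF-KO against WT mesoderm, 0.0342% for P2-CTCF-KO against WT mesoderm and 0% for P2-CTCF-KO against P1-CTCF-KO mesoderm. The corresponding counts of genes at an unadjusted p under 0.05 were 166, 1409 and 987 of 8778, and DESeq2 called 0, 166 and 98 genes. All 3 comparisons of HPC genotypes called 0% of 7422 genes with edgeR and 0 with DESeq2, with 260, 145 and 650 genes at an unadjusted p under 0.05 for P1-CTCF-KO against WT, P2-CTCF-KO against WT and P2-CTCF-KO against P1-CTCF-KO.

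Kdr (mm9 chromosome 5, 76328851 to 76374480, minus strand) had 0.0928 and 0.108 CPM in the mESC libraries, from 17 and 11 counts. In WT mesoderm it reached 37.9, 26.8 and 16.9 CPM in B9.3, C6.1 and C8.1. P1-CTCF-KO mesoderm held 30.1, 25.6 and 39.1 CPM in E7.1, E7.2 and E9.1, and P2-CTCF-KO mesoderm 24.2, 26.1 and 29.8 CPM in D10.1, D2.1 and E9.1. All 3 genotypes therefore overlapped in the receptor used for the sort. Between genotypes of mesoderm its log2 fold change was 0.22 for P1-CTCF-KO against WT (95% interval -0.38 to 0.82) and its interval for P2-CTCF-KO against WT was -0.61 to 0.60. In HPCs Kdr was at 11.2, 4.99, 2.76 and 7.42 CPM in WT, 8.11, 5.59 and 6.46 CPM in P1-CTCF-KO, and 3.91 to 18.1 CPM (median 4.67) in the 5 P2-CTCF-KO libraries. Within each genotype every HPC library lay below every mesoderm library, and Kdr was still the member with the highest mean level per kb in HPCs of all 3 genotypes.

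In the ATAC-seq peak lists, 1 per stage from merged libraries, mesoderm had a peak over the Kdr start site (76374413 to 76374636) that was not in the HPC list. The ATAC-seq cells are labelled E14-TG2a, and the study's methods name E14-TG2a-RV, a reporter derivative of that line. The 200 bases upstream of that start site and the window of the mesoderm peak in the body of Kdr are shown because the first borders and partly overlaps the start-site peak of the sorted receptor and the second lies within the peak in its body. Each line gives the minus strand of mm9, 5′ to 3′, at chr5:76374484-76374683 and chr5:76358358-76358557. Capitals mark matches on either strand to 4 words, of which AGGAAG and CGGAAG are cores of many ETS sites, AGATAA is a word bound by GATA factors and CAGATG is an E-box.
Kdr, 200 bases upstream of the start: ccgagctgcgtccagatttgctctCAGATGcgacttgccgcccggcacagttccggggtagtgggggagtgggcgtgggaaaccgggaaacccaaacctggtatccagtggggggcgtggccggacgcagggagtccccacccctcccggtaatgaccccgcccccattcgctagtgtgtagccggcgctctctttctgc
Kdr, intron of the coding transcripts: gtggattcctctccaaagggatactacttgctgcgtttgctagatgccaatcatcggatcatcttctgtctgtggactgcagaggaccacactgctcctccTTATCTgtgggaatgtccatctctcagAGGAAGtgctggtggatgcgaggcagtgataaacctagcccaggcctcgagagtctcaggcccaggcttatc
The upstream window held 1 CAGATG, which lies outside the called peak, and the window in the gene body held 1 AGGAAG and 1 AGATAA. The second window lies between coding exons, in sequence that a retained-intron transcript of Kdr also covers. In windows of 200 bases centred on all 76764 mesoderm peaks with full sequence, AGGAAG was found in 30.6%, CGGAAG in 8.54%, AGATAA in 16.2% and CAGATG in 16.7%. These words are therefore common, and a match is a description of the letters only.

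Flt1 (chromosome 5, 148373179 to 148537587, minus strand), the high-affinity receptor next to Kdr in the pathway, had 0.748 and 0.735 CPM in mESCs. WT mesoderm held 15.7, 3.52 and 6.07 CPM in B9.3, C6.1 and C8.1, so its highest library was over the others, and all 3 were above mESCs. The rise was 3.53 ± 0.67 on the log2 scale (SE, adjusted p = 0.00319, or 0.0473 with mESCs as 1 sample and 0.0504 without the first mESC library). P1-CTCF-KO mesoderm gave 9.63, 4.20 and 12.5 CPM, overlapping WT. P2-CTCF-KO mesoderm gave 2.55, 0.656 and 1.33 CPM, from 37, 7 and 18 counts. Each P2-CTCF-KO library was thus below each of the other 6 mesoderm libraries. The log2 fold change of P2-CTCF-KO against WT was -2.43 ± 0.63 (adjusted p = 0.138 in edgeR, 0.00724 in DESeq2, 95% interval -3.82 to -1.05), and against P1-CTCF-KO -2.46 ± 0.63 (adjusted p = 0.236 in edgeR, 0.0073 in DESeq2). The order of the mesoderm libraries WT C6.1, WT C8.1 and WT B9.3 in Flt1 was also their order in the endothelial sum (4.13, 14.01 and 102 CPM). The same held for P1-CTCF-KO E7.2, E7.1 and E9.1 (8.03, 27.95 and 64.6 CPM). It did not hold in P2-CTCF-KO, where D10.1, highest in Flt1, had the lowest sum (1.86 CPM). The part of endothelial cells in the difference between genotypes was not tested.

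In HPCs the level of Flt1 overlapped that of WT mesoderm. WT HPCs had 9.45, 4.35, 3.25 and 11.8 CPM in B9.3, its second library, C6.1 and C8.1, and P1-CTCF-KO HPCs 13.0, 8.94 and 13.3 CPM. The 5 P2-CTCF-KO HPC libraries ranged from 2.75 to 23.8 CPM with a median of 4.80, and each was above the 3 P2-CTCF-KO mesoderm libraries. From mesoderm to HPCs Flt1 rose in P2-CTCF-KO cells by 2.80 ± 0.75 on the log2 scale (adjusted p = 0.00682), while in WT the log2 fold change was -0.24 ± 0.50 (adjusted p = 0.775, 95% interval -1.33 to 0.85) and in P1-CTCF-KO 0.41 ± 0.72 (adjusted p = 0.686). The WT value turned to 0.57 without mesoderm B9.3. The difference of the step between P2-CTCF-KO and WT was 3.06 ± 0.98 with an adjusted p of 0.389, so the steps were not shown to differ, where 0.0218% of 9170 genes were called. For P1-CTCF-KO minus WT, 0% were called and 306 genes had an unadjusted p under 0.05.

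Flt1 had no peak at its start site in either list. Of its 9 mesoderm peaks and 4 HPC peaks, all intronic, 2 were in both lists. The windows of a peak shared by the stages (chr5:148469517-148469716) and of the HPC peak nearest to the start site (chr5:148533093-148533292) are shown as accessible sequence of a receptor with counts at both stages, on the minus strand of mm9 with the same words in capitals.
Flt1, intronic peak of both stages: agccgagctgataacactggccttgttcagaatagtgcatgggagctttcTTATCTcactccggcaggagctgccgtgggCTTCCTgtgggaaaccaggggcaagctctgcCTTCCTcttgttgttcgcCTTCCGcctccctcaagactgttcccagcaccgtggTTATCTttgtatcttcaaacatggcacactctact
Flt1, intronic peak of the HPC list only: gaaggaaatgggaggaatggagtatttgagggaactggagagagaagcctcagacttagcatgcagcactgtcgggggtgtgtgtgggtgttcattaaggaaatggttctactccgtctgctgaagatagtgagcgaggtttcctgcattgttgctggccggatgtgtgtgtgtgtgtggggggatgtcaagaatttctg
The shared window held 2 AGGAAG, 1 CGGAAG and 2 AGATAA, and the HPC window none of the 4 words. Among windows of all 29035 HPC peaks with full sequence, AGGAAG was in 39.7%, CGGAAG in 12.6%, AGATAA in 11.2% and CAGATG in 15.8%.

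Flt4 (chromosome 11, 49423180 to 49466241, plus strand), the receptor for Vegfc that is best known from lymphatic endothelium, was at 0.649 and 0.834 CPM in mESCs. WT mesoderm had 13.0 CPM in B9.3 but 0.728 and 1.38 CPM in C6.1 and C8.1, and P1-CTCF-KO mesoderm 2.92, 1.23 and 11.2 CPM. A single library of each genotype, the one with the highest endothelial sum, therefore carried most of the signal. The rise into WT mesoderm (2.82 ± 0.92 on the log2 scale, adjusted p = 0.0415) became 0.62 without B9.3 (adjusted p = 0.428), and it had an adjusted p of 0.207 with mESCs as 1 sample, 0.233 and 0.197 without either mESC library and 0.0606 in a fit of all 23 libraries. Likewise, the fall into WT HPCs (-2.88 ± 0.86, adjusted p = 0.0273) became -0.67 without mesoderm B9.3 (adjusted p = 0.425). WT HPCs held 0.343, 1.41, 0.296 and 0.917 CPM, and in P1-CTCF-KO HPCs 0.203, 0.894 and 0.253 CPM were left, all below P1-CTCF-KO mesoderm (-3.36 ± 1.26, adjusted p = 0.0406, or 0.0759 with the clone as a block and 0.241 without mesoderm E9.1). P2-CTCF-KO mesoderm had 0.827, 0.375 and 0.592 CPM, within the range of mESCs and HPCs. Its log2 fold change against WT, -3.06 ± 1.16 (adjusted p = 0.24), was -0.83 without WT B9.3. Among P2-CTCF-KO HPCs, D2.1 had 5.16 CPM and the other 4 libraries 0.387 to 0.760 CPM.

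**Figure D2:**
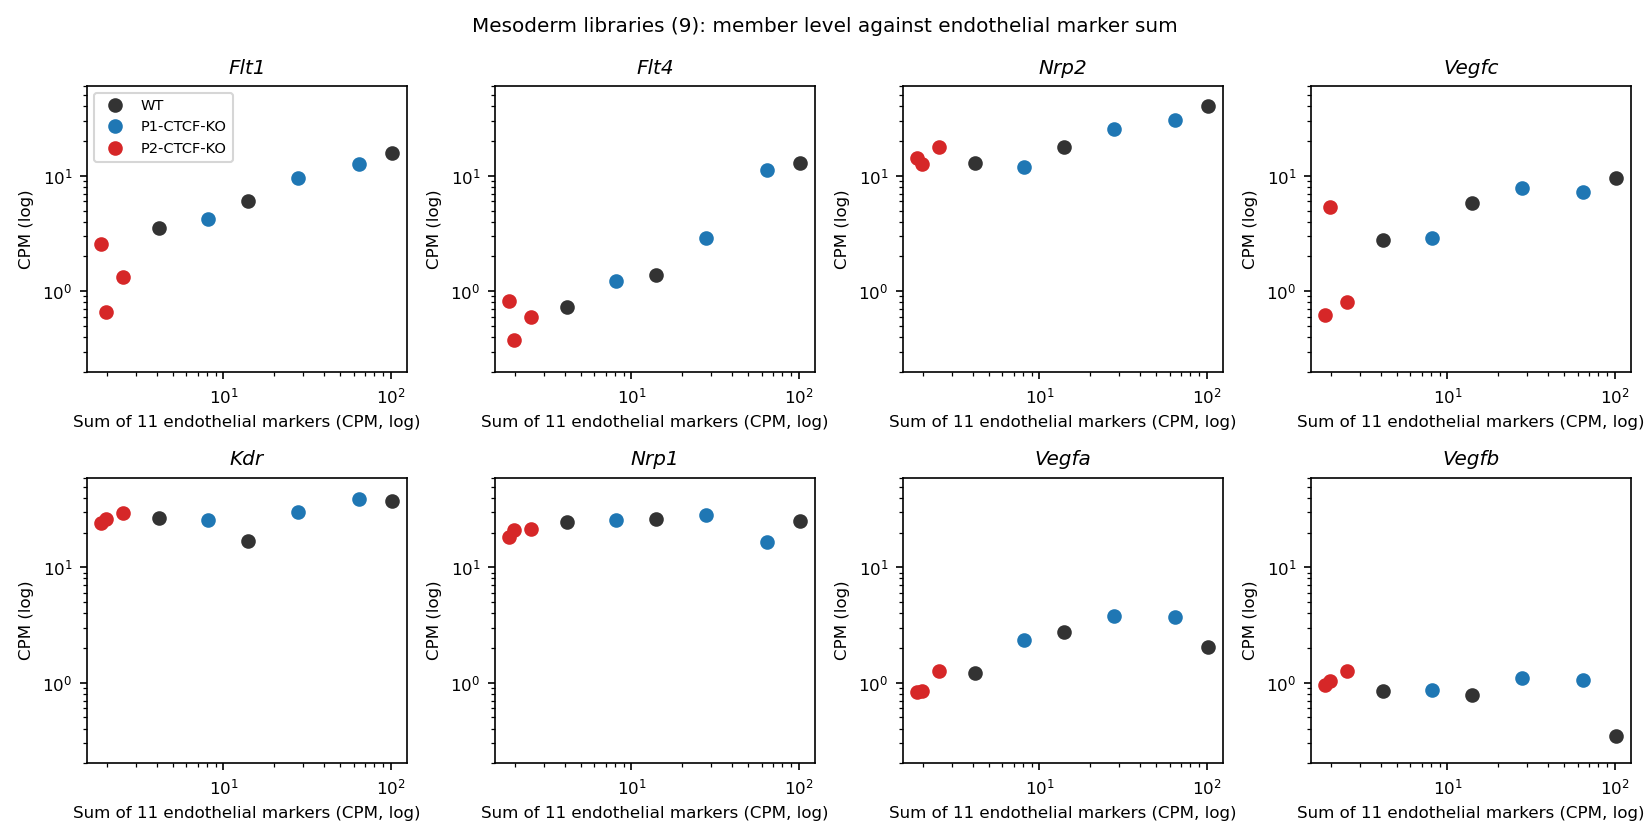
Level of 8 members (CPM, log axis) against the sum of 11 endothelial markers (CPM, log axis) in the 9 mesoderm libraries, one point per library, coloured by genotype. Flt1 was lowest in the 3 P2-CTCF-KO libraries, at endothelial sums of 1.86 to 2.52 CPM, Flt4 was at or under 0.827 CPM in these and in WT C6.1, and both were highest in WT B9.3 at 102 CPM, whereas Kdr and Nrp1 stayed between 16 and 40 CPM.

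Nrp1 (chromosome 8, 130882972 to 131029375, plus strand), co-receptor of Kdr, was the most even member in WT mesoderm. It had 0.104 and 0.0784 CPM in mESCs, and 25.4, 24.6 and 26.0 CPM in WT mesoderm. The rise was 8.04 ± 1.52 on the log2 scale (adjusted p = 0.00301, or 0.0468 with mESCs as 1 sample and 0.0514 without the first mESC library). P1-CTCF-KO mesoderm held 28.5, 25.8 and 16.4 CPM and P2-CTCF-KO mesoderm 18.3, 21.1 and 21.3 CPM. The P2-CTCF-KO libraries lay below WT without overlap, by a log2 fold change of -0.30 with a 95% interval of -0.73 to 0.13 (adjusted p = 0.475). Across the 9 mesoderm libraries its coefficient of variation was 17.3%, against 84.3% for Flt1 and 137% for Flt4.

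HPCs were low in Nrp1 except for a pair of libraries. WT HPCs had 24.6 CPM in B9.3 (287 counts), the level of mesoderm, but 1.28, 0.789 and 1.58 CPM in the second library of that clone, C6.1 and C8.1. P2-CTCF-KO HPCs had 15.1 CPM in D2.1 and 1.15 to 3.26 CPM in the other 4, and the second library of D2.1 had 1.90 CPM. In each case the other library of the same clone lay within the range of the remaining libraries of its group. The HPC library B9.3 had an endothelial sum of 26.3 CPM, above the other WT libraries (13.6 to 22.7 CPM) but near them, whereas D2.1 had 79.5 CPM, and what these libraries hold was not tested. P1-CTCF-KO HPCs had 1.82, 2.57 and 5.70 CPM, and fell from P1-CTCF-KO mesoderm by 2.80 on the log2 scale (adjusted p = 0.0371, or 0.0516 with the clone as a block). In WT the log2 fold change was -1.82 ± 0.86 (adjusted p = 0.144), which was -4.35 without HPC B9.3 (adjusted p = 1.79e-06), -2.02 with the libraries of a clone summed (adjusted p = 0.0611) and -2.97 with the clone as a block (adjusted p = 0.0357). In P2-CTCF-KO it was -2.06 ± 0.83 (adjusted p = 0.0569), -3.24 without D2.1 (adjusted p = 0.00263) and -2.49 with the block (adjusted p = 0.046). DESeq2 set no p for Nrp1 at these steps.

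Nrp2 (chromosome 1, 62749890 to 62865266, plus strand), the neuropilin that pairs with Flt4 for Vegfc, had 3.75 and 4.63 CPM in mESCs, from 688 and 472 counts. WT mesoderm had 40.6, 13.0 and 17.6 CPM, a rise of 2.51 ± 0.77 on the log2 scale (adjusted p = 0.0324). Its adjusted p was 0.179 with mESCs as 1 sample, 0.199 and 0.169 without either mESC library, 0.0653 without B9.3 and 0.0598 in the fit of all 23 libraries. P1-CTCF-KO mesoderm had 25.4, 12.02 and 30.5 CPM and P2-CTCF-KO mesoderm 14.4, 12.8 and 17.8 CPM, and all genotypes overlapped. The highest values were again in WT B9.3 and P1-CTCF-KO E9.1. In WT HPCs 8.84, 2.43, 0.592 and 2.00 CPM were found, below every WT mesoderm library (-2.76 ± 0.63, adjusted p = 0.00719). P1-CTCF-KO HPCs had 1.01, 1.90 and 2.79 CPM (-3.54 ± 0.99, adjusted p = 0.00846). P2-CTCF-KO HPCs had 21.6 CPM in D2.1 and 1.41 to 3.29 CPM in the other 4, and the step was -1.28 ± 0.75 (adjusted p = 0.184), or -2.80 without D2.1 (adjusted p = 0.000758). The table's entry 4930487H11Rik on the opposite strand of Nrp2 had 1 count in all libraries, so it took no part in these values. Entries spanning over 2.5 Mb also cover Nrp2 (LOC108167347, opposite strand, 390336 counts in all libraries), Kdr, Vegfa and Vegfc. Mir1903, inside Nrp1 on the same strand, had 52 counts. The effect of these entries on the counts of the members was not tested.

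A peak upstream of the Nrp1 start site was in both lists (130881092 to 130881396 in mesoderm), and its window (chr8:130881145-130881344, plus strand of mm9) is shown because it is the only peak near Nrp1 that mesoderm and HPCs shared.
Nrp1, upstream peak of both stages: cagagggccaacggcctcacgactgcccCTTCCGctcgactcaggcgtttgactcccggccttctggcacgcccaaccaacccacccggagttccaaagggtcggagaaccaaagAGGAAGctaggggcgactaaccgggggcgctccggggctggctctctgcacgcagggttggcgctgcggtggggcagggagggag
It held 1 AGGAAG and 1 CGGAAG. At Nrp2, a peak over the start site (62749844 to 62749980) was in the mesoderm list alone, and 1 of its 13 mesoderm peaks was also in the HPC list.

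Vegfa (chromosome 17, 46153942 to 46169326, minus strand), the ligand of Kdr and Flt1 and a classic hypoxia target, had 1.40 and 1.12 CPM in mESCs and 2.03, 1.21 and 2.77 CPM in WT mesoderm, a log2 fold change of 0.70 ± 0.58 (adjusted p = 0.392). P1-CTCF-KO mesoderm had 3.79, 2.35 and 3.68 CPM and P2-CTCF-KO mesoderm 0.827, 0.844 and 1.26 CPM. Vegfa was thus lower in each P2-CTCF-KO than in each P1-CTCF-KO library, with WT in between and overlapping both. Its log2 fold change was -1.70 ± 0.34 for P2-CTCF-KO against P1-CTCF-KO (adjusted p = 0.191 in edgeR, 0.0164 in DESeq2), -1.04 ± 0.35 for P2-CTCF-KO against WT (adjusted p = 0.2) and 0.66 ± 0.31 for P1-CTCF-KO against WT (unadjusted p = 0.0582 in edgeR, adjusted p = 1). In WT HPCs, 1, 6, 8 and 0 counts remained, and the fall was -2.47 ± 0.66 (adjusted p = 0.0156, or 0.0671 without mesoderm C8.1). P1-CTCF-KO HPCs had 2 counts in each library. The summed level of P1-CTCF-KO mesoderm, 178 counts against 6, was 11.4 times higher (95% counting interval 5.14 to 31.5), and the change was called (adjusted p = 0.000906). P2-CTCF-KO cells started lower, and their HPCs held 0.317 to 1.12 CPM, overlapping their mesoderm (log2 fold change -0.33, adjusted p = 0.658). The difference of the step between P2-CTCF-KO and WT was 2.11 ± 0.81 (adjusted p = 0.512).

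Vegfb (chromosome 19, 7056961 to 7062141, minus strand), a ligand of Flt1 and Nrp1, had 0.136 and 0.255 CPM in mESCs. It was at 0.349, 0.850 and 0.781 CPM in WT mesoderm, at 0.864 to 1.11 CPM in P1-CTCF-KO mesoderm and at 0.964 to 1.26 CPM in P2-CTCF-KO mesoderm, so both knockouts lay above WT without overlap. These differences did not pass the test (log2 fold change 0.66 ± 0.37, adjusted p = 1, and 0.80 ± 0.38, adjusted p = 0.332), and they rest on 6 to 21 counts a library. In HPCs Vegfb had 0 to 5 counts in each WT library, 0 counts in all 3 P1-CTCF-KO libraries and 2 to 4 counts in each P2-CTCF-KO library. Against a floor of 3 counts a library, Vegfb was at least 2.28-fold lower in P1-CTCF-KO HPCs than in P1-CTCF-KO mesoderm (adjusted p = 0.000527). The fall in P2-CTCF-KO cells was 2.03 ± 0.53 on the log2 scale (adjusted p = 0.00621). In WT the log2 fold change was -1.36 ± 0.73 (adjusted p = 0.2).

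Vegfc (chromosome 8, 55162885 to 55271808, plus strand), the ligand of Flt4, had 1.82 and 1.32 CPM in mESCs and 9.65, 2.79 and 5.77 CPM in WT mesoderm (log2 fold change 1.97 ± 0.73, adjusted p = 0.0652). P1-CTCF-KO mesoderm had 7.82, 2.88 and 7.29 CPM. In P2-CTCF-KO mesoderm, D2.1 had 5.34 CPM but D10.1 and E9.1 had 0.620 and 0.814 CPM, so the clones split, and the log2 fold change against WT was -1.50 ± 0.72 (adjusted p = 0.335). WT HPCs held 0.601, 0.512, 1.08 and 4.999 CPM, with C8.1 the highest. The step was -1.73 ± 0.64 (adjusted p = 0.064), -3.07 without HPC C8.1 (adjusted p = 0.00156), -1.23 without mesoderm B9.3 (adjusted p = 0.193), -0.89 without the libraries that stood apart (adjusted p = 0.245), -1.50 with the libraries of a clone summed (adjusted p = 0.116) and -1.97 with the clone as a block (adjusted p = 0.0236). Both knockouts' HPCs spread as widely, from 0.760 to 5.07 CPM and from 0.543 to 4.46 CPM.

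Pgf (chromosome 12, 86507588 to 86518263, minus strand), a ligand of Flt1, had 37 counts in all 23 libraries. They were 9 and 10 in the mESC libraries, 0 to 4 in each mesoderm library and 0 in all WT and P1-CTCF-KO HPC libraries. No fold is given, since HPCs and mesoderm were both at about the floor of 3 counts.

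**Figure D3:**
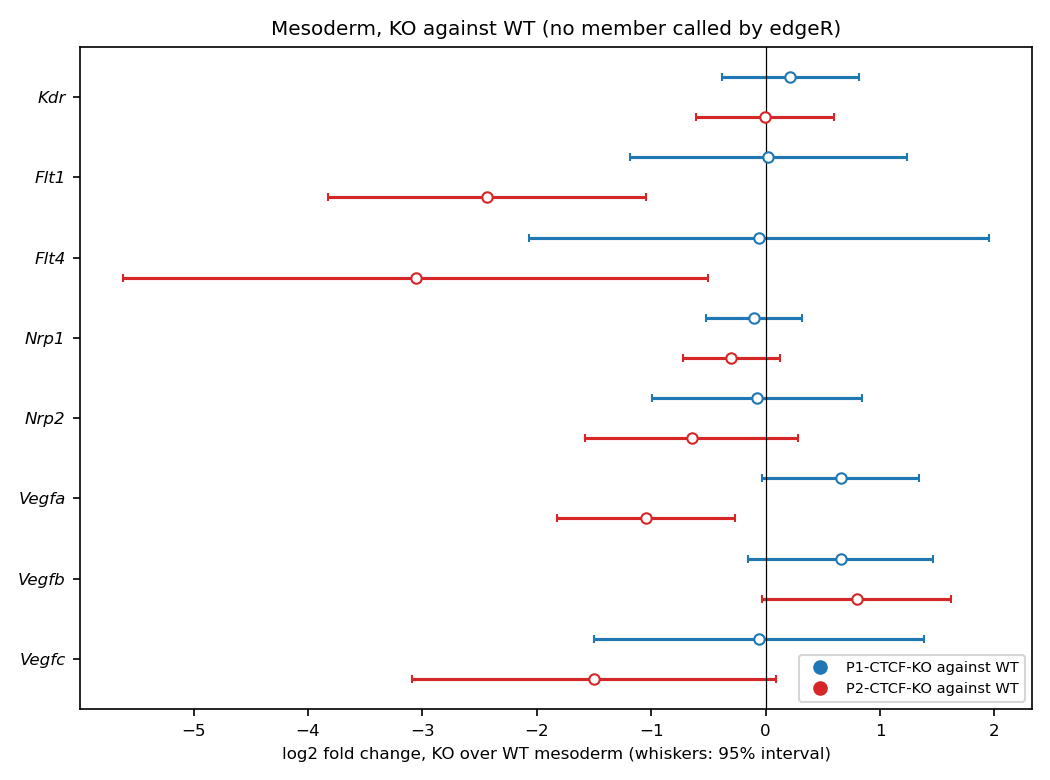
Log2 fold change of each tested member in mesoderm, P1-CTCF-KO (blue) and P2-CTCF-KO (red) against WT, with 95% intervals from the edgeR fit of 9 libraries. All 16 points are open because none was called, and the P2-CTCF-KO intervals of Flt1, Flt4 and Vegfa lie below 0 while those of Kdr and both neuropilins include it.

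Between mesoderm genotypes, no overlap of the libraries was found for Flt1 and Nrp1 (lower) and Vegfb (higher) in P2-CTCF-KO against WT, where 11.2% and 8.25% of all genes did not overlap in these directions. It was found for Flt1, Flt4 and Vegfa (lower) in P2-CTCF-KO against P1-CTCF-KO, where 10.5% of genes did so, while no member was higher without overlap (7.62% of genes were). In P1-CTCF-KO against WT it was found for Vegfb (higher), where 3.44% of genes did so, and no member was lower without overlap (3.03% of genes were). The P1-CTCF-KO log2 fold changes against WT ranged from -0.10 for Nrp1 to 0.66 for Vegfa and Vegfb, and those of Flt1, Flt4, Nrp2 and Vegfc lay nearer to 0 than that of Nrp1. Their intervals were wide for Flt4 (-2.06 to 1.95) and narrow for Nrp1 (-0.53 to 0.32). Comparisons of both knockouts with WT share the WT libraries.

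In HPCs, 5 of the 9 members passed the filter on low counts (Kdr, Flt1, Nrp1, Nrp2 and Vegfc). Their genotypes overlapped throughout, and the smallest unadjusted p in edgeR was 0.133, for Nrp2 in P2-CTCF-KO against P1-CTCF-KO (log2 fold change 1.70, 95% interval -0.59 to 4.00). Flt1 differed from WT by 0.71 in P1-CTCF-KO (95% interval -0.79 to 2.21) and by 0.63 in P2-CTCF-KO (-0.70 to 1.96). These intervals reach a log2 fold change of about 2, so changes of that size lie within them.

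**Figure D4:**
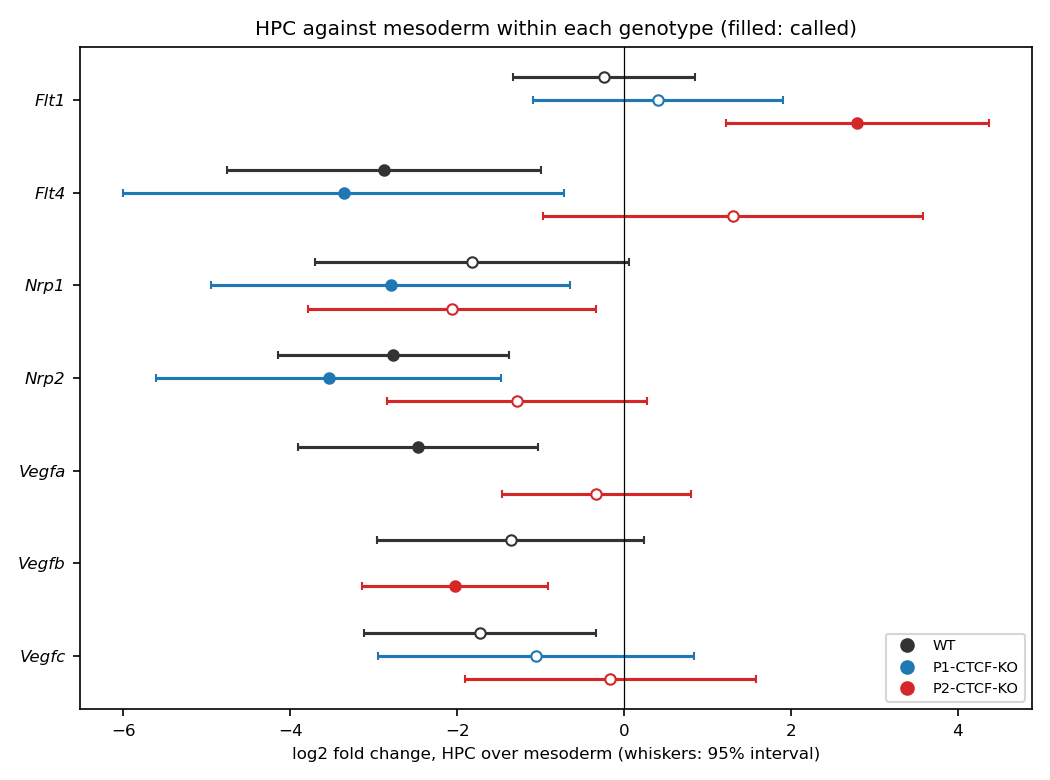
Log2 fold change from mesoderm to HPCs of 7 members in each genotype with 95% intervals, where WT comes from the fit of 9 WT libraries and the knockouts from the fit of 21, filled points were called, and Vegfa and Vegfb of P1-CTCF-KO are left out because their HPC libraries were at or under 3 counts. Flt1 is the only member with a called rise, in P2-CTCF-KO, and the called changes of Flt4, Nrp1, Nrp2, Vegfa and Vegfb were falls.

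Levels can be compared between genes per kb of the counted span. In mESCs Vegfa was highest, with 0.0819 CPM per kb as the mean of the 2 technical replicates, and Nrp1 lowest with 0.000622. WT mesoderm was led by Kdr with 0.596 ± 0.230 CPM per kb (SD, n = 3), above the range of Nrp2 (0.206 ± 0.128). Below it the order was Nrp2, Nrp1, Vegfa, Vegfb, Flt4, Vegfc and Flt1 (0.0514 ± 0.0392), in which no neighbours differed beyond their ranges, and Pgf was below all with 0.00926. Flt1 therefore ranked 8 of 9 in mesoderm of each genotype. In HPCs Kdr led again with 0.144 ± 0.0788 CPM per kb in WT (SD, n = 4), 0.147 ± 0.0281 in P1-CTCF-KO (n = 3) and 0.180 ± 0.134 in P2-CTCF-KO (n = 5). Flt1 ranked 4 in WT HPCs and 2 in HPCs of each knockout (0.0714 ± 0.0148 in P1-CTCF-KO). In WT HPCs the ranges of neighbours in this order overlapped except those of Vegfc and Pgf, and in P2-CTCF-KO HPCs all did.

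Other genes of the pathway were counted in lists. Of 18 transcription factors of hemangioblast and endothelium, 11 of 13 tested rose from mESCs to WT mesoderm and none fell, with a median log2 fold change of 3.54 against -0.18 over all genes tested, of which 24.4% were called. With mESCs as 1 sample, which leaves no spread within mESCs to judge calls by, 15 of the list were tested. Their median was 4.44 against -0.19 over all genes, and it is not for the same set as 3.54. Tal1, which with Lmo2 and Gata2 starts the blood program, went from 0.0981 to 0.136 CPM up to 2.499 to 3.157 CPM (adjusted p = 1.78e-05), and Fli1, an ETS factor of endothelium, from at most 0.0164 CPM to 3.16 to 31.7 CPM. In P2-CTCF-KO against WT mesoderm 0 of the 14 tested were called, and their median log2 fold change was -2.08 against 0.01 over all genes. From mesoderm to HPCs the list gave 3 rises and 2 falls among 13 tested in WT, where 23.3% of all genes were called. Among 14 tested it gave 4 rises and 1 fall in P1-CTCF-KO, where 32.7% of all genes were called. In P2-CTCF-KO it gave 7 rises and 0 falls among 14, where 28.2% of all genes were called. Tal1 and Lmo2 were among the rises in each genotype, and Sox7, an endothelial SOX factor, had 0 CPM in all WT HPC libraries against 1.09 to 4.30 CPM in WT mesoderm.

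Among 45 intermediates of VEGF signalling, 16 of 43 tested were called from mESCs to WT mesoderm (10 higher, 6 lower) and 15 from WT mesoderm to HPCs (8 higher, 7 lower), with medians of 0.34 and 0.25 against -0.18 and -0.01 over all genes, of which 24.4% and 23.3% were called. With mESCs as 1 sample, which leaves no spread within mESCs to judge calls by, the median into mesoderm was 0.31 against -0.19 over all genes. Nfatc1, a calcineurin target, rose into mesoderm by 3.88 ± 0.37 on the log2 scale (adjusted p = 9.48e-05), as did Ptprb, the phosphatase VE-PTP, from at most 0.0196 CPM to 0.728 to 8.43 CPM. Into WT HPCs the lowest adjusted p among them was that of Prkca, followed by Pik3cb, Plcg2 and Plcg1. Prkca, a protein kinase C, went from 2.15 to 6.01 CPM up to 118 to 294 CPM, and Plcg2, the phospholipase of hematopoietic cells, from 0.421 to 1.45 CPM up to 11.4 to 28.0 CPM, while Plcg1, the phospholipase that Kdr activates, fell by 1.41 ± 0.23 (adjusted p = 0.00101). None of the 39 tested was called between mesoderm genotypes.

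Of 13 neuropilin partners, 7 of 11 tested were called into WT mesoderm (5 higher, 2 lower) and 5 into WT HPCs (1 higher, 4 lower), beside 24.4% and 23.3% of all genes. Their median log2 fold changes were -0.53 against -0.18 and -0.83 against -0.01 over all genes. With mESCs as 1 sample, which leaves no spread within mESCs to judge calls by, the median into mesoderm was -0.51 against -0.19. The plexin Plxna4, a semaphorin receptor that pairs with neuropilins, rose at both steps, from at most 0.275 CPM in mESCs to 7.09 to 13.6 CPM in mesoderm and 28.0 to 96.1 CPM in HPCs, while Plxna1 fell into HPCs (-1.44 ± 0.27, adjusted p = 0.00217). Of 10 genes of hypoxia control, none was called into mesoderm, and 1 rose (Hif3a) and 3 fell (Arnt2, Egln1 and Epas1) into WT HPCs. Egln1, the prolyl hydroxylase that marks HIF proteins for decay, went from 2.18 to 4.15 CPM down to 0.197 to 0.895 CPM. Among 6 measured genes of the other VEGF ligand and of Vegfc processing, Adamts3, Furin and Pcsk5, proteases of Vegfc maturation, rose into mesoderm and Adamts14 fell (Pcsk5 had an adjusted p of 0.0578 with mESCs as 1 sample), and Furin alone was called into WT HPCs (-1.97 ± 0.24, adjusted p = 0.000154).

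Likeness to Kdr and Flt1 was taken as Pearson's r of log2(CPM + 1) over the 21 mesoderm and HPC libraries, which share stage, library and depth, so r is a description only. The genes most like Kdr were Hip1 (r = 0.965), Nisch (0.965), Peg10 (0.958), Rara (0.958) and Yap1 (0.955). The neuropilins were near these values (0.939 for Nrp2 and 0.897 for Nrp1). Kdr and Flt1 were unlike each other, with r = -0.0128. Closest to Flt1 were Col18a1 (0.947), which encodes a basement membrane collagen, Csgalnact1 (0.927), Mtus1 (0.927) and Denn2b (0.91), and its highest r with a member was 0.411, for Flt4.

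Within 10 kb of the 9 genes lay 55 mesoderm peaks and 18 HPC peaks. Of the mesoderm peaks, 12 (21.8%) were also in the HPC list, against 25.8% of all 76766 mesoderm peaks, and the same 12 counted from the HPC side were 66.7% against 69.4% of all 29037. The members were thus near the background in both directions. Kdr had 4 mesoderm peaks and 1 HPC peak (76358261 to 76358327), which met a mesoderm peak (76358324 to 76358591) only at its edge. Vegfa had a mesoderm peak over its start site (46169279 to 46169412) and no HPC peak. The neuropilins had 18 mesoderm and 5 HPC peaks together. In member windows of 200 bases, AGGAAG was found in 27.3% of the 55 mesoderm and 38.9% of the 18 HPC windows, near the shares of all peaks. CGGAAG was in 12.7% of the mesoderm windows (7 of 55) against 8.54% of all, and in 22.2% of the HPC windows (4 of 18) against 12.6%. These 4 HPC peaks were all also in the mesoderm list, so both shares rest partly on the same places and on few windows. AGATAA was in 16.4% of mesoderm windows against 16.2% of all, and in 11.1% of HPC windows against 11.2%. CAGATG was in 12.7% against 16.7%, and in 16.7% against 15.8%. The lists hold positions only, so no height was compared, and the HPC list came from fewer merged libraries.

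**Figure D5:**
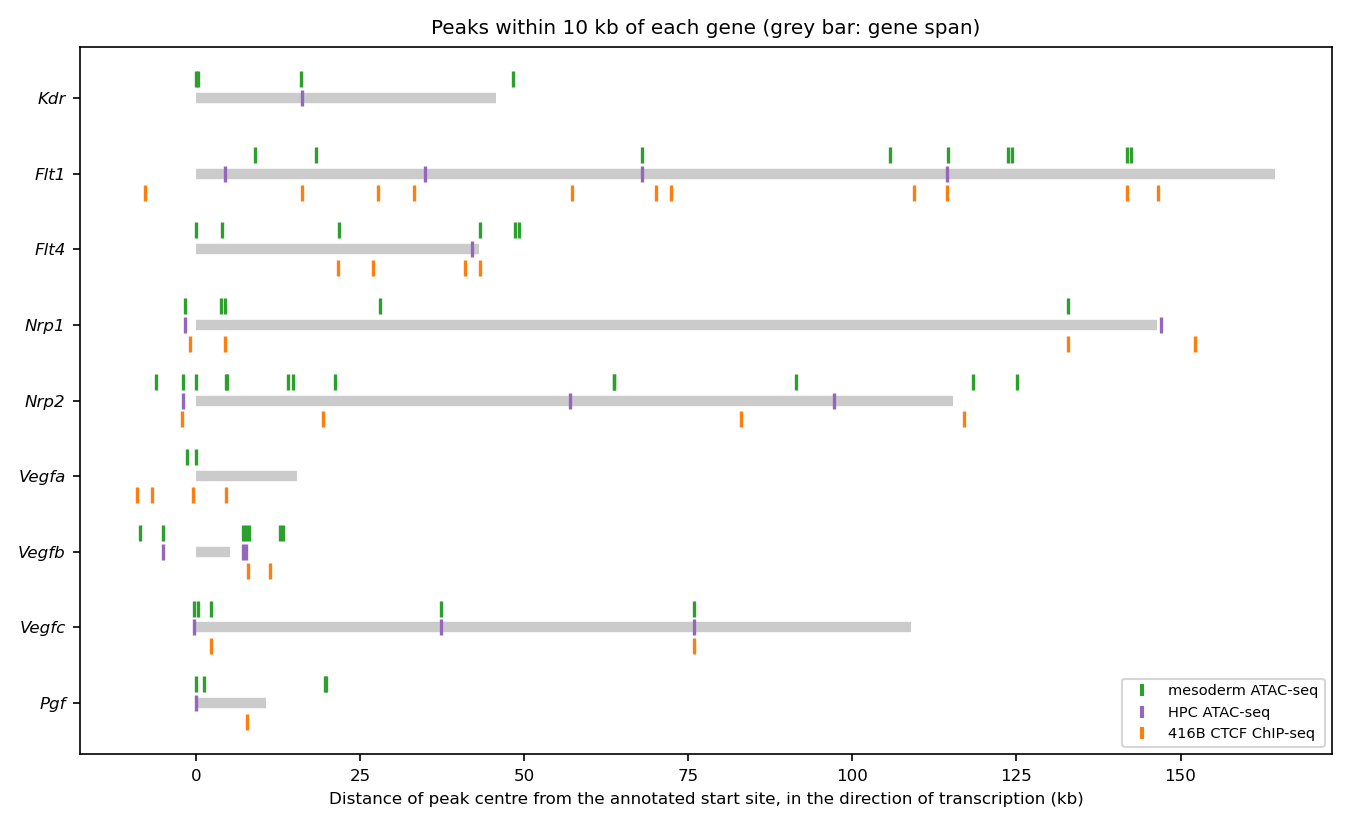
Centres of ATAC-seq peaks of mesoderm (green) and HPCs (purple) and of CTCF ChIP-seq peaks of 416B cells, a mouse blood progenitor line (orange), as distance in kb from each annotated start site in the direction of transcription, with gene spans as grey bars. Flt1 carries 11 CTCF peaks and Kdr none within 10 kb, and start sites of Kdr, Nrp2 and Vegfa are covered by a mesoderm peak and by no HPC peak.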

How the data were processed

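Poly(A)-minus RNA was sequenced from 23 libraries. The authors aligned reads with STAR to mm9, removed duplicates and counted reads per gene over exons and introns with featureCounts, and the deposited table holds these raw counts. ATAC-seq and CTCF ChIP-seq peaks, deposited as positions only, were called by the authors with MACS2 on merged libraries.

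Groups followed the sample labels. Ribosomal RNA, 135 entries at several loci and 50 entries spanning over 2.5 Mb were kept in library sizes and in the main tests. An alternative fit left them out. Counts were tested in edgeR 4.0.16 (R 4.3.3, quasi-likelihood test with Benjamini-Hochberg adjustment over all genes tested, TMM, filterByExpr with a minimum count of 10), separately for WT over stages, for each stage over genotypes, and for mesoderm and HPCs together. DESeq2 1.42.0, other filters, a clone block and omission of libraries were alternatives. The code was tested on simulated data. Figures used matplotlib 3.10.9.

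The members and the gene lists were chosen with earlier results of these data known. Members were described one by one, and in each list the called genes with the lowest adjusted p were named. Of the 5 genes most like Flt1, 1 is not reported here. The main tests did not pair the libraries of a clone in mesoderm and HPCs. The clone block, an alternative, paired them because they share a clone, although deviations from group means correlated weakly (r from -0.158 to 0.184 for 12 same-clone pairs, of which 5 were over 0.1, and from -0.201 to 0.213 for 24 other pairs, of which 4 were). The figure legends of the study describe libraries as independent experiments, whereas the labels name the mESC pair technical replicates and some HPC libraries second libraries of a clone. All entered as libraries of their own, so p-values measure the spread between libraries, which in mESCs is technical, and a fit with the mESC pair summed to 1 sample was added after seeing the data. Total counts were 7805102 to 24406998 a library, and counting intervals cover counting error only.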

Additional observations from a re-analysis of the deposited data

Results flagged for a closer look

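In groups of 4 or 5 HPC libraries, 1 library stood far from the others for 5 of 18 combinations of gene and group, by Dixon's 95% criterion. Chance meets it in about 1 of 20 groups of independent, normally spread values. The criterion was applied to CPM on the linear scale, and the combinations share libraries, so that rate cannot be set against the 5 of 18. The P2-CTCF-KO library D2.1 accounted for 3 of them: Flt4 at 5.16 CPM against 0.387 to 0.760 CPM in the other 4, Nrp1 at 15.1 CPM against 1.15 to 3.26 CPM, and Nrp2 at 21.6 CPM against 1.41 to 3.29 CPM. The WT library B9.3 had Nrp1 at 24.6 CPM against 0.789 to 1.58 CPM in the other 3. The WT library C8.1 had Vegfc at 4.999 CPM against 0.512 to 1.08 CPM.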

How the results depend on the processing

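Of the values compared with an alternative, 178 counts and shares held and 22 moved, while 405 single gene values kept direction and side of the threshold, 30 were no longer past it, 29 newly passed it and 3 changed sign. Without a filter on low counts, 5 members were called in WT HPCs against WT mesoderm in place of 3, 2 in P2-CTCF-KO against WT mesoderm and 3 in P2-CTCF-KO against P1-CTCF-KO mesoderm in place of 0. DESeq2 called 1 and 2 members in the latter comparisons, and gave no adjusted p for Nrp1 where mESCs or HPCs entered. With the clone as a replicate block, 5 members were called in WT HPCs against WT mesoderm in place of 3, and 3 in P1-CTCF-KO in place of 5. Leaving out single libraries gave 0 to 5 members from mESCs to WT mesoderm (0 and 2 without an mESC library, where the lone library is assumed to vary like the other groups, and 2 with both summed to 1 sample), 2 to 4 in WT HPCs against mesoderm, 3 to 4 in P1-CTCF-KO and 2 to 4 in P2-CTCF-KO, with 4 without D2.1. Leaving out together the libraries that stood apart, an alternative chosen after seeing the data, gave 4 members in P2-CTCF-KO. The WT step of Flt1 changed sign, from -0.59 to 0.57 over single omissions and to 0.44 without the libraries that stood apart (adjusted p = 0.487 in edgeR). Peaks at the members numbered 89 in mesoderm and 28 in HPCs within 50 kb, 34 and 10 within the gene span, and 28 and 9 among wider peaks. With a pseudocount of 0.1, 3 of the 5 genes most like Kdr were shared. The cause of these changes was not tested. Between 878966 and 1584401 counts of other genes in HPC libraries limit the ligands, of which Pgf could not be tested.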
